A study of Arabidopsis thaliana with 6 samples.

Results

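The SPIRAL1-like genes of Arabidopsis thaliana encode small microtubule proteins, and 5 of the 6 genes of the family had an Affymetrix ATH1 probe set that mapped to them alone. These were SPR1 (AT2G03680), SP1L2 (AT1G69230), SP1L3 (AT3G02180), SP1L4 (AT5G15600) and SP1L5 (AT4G23496), out of 13333 genes with a probe set of their own. The remaining gene, SP1L1 (AT1G26355), was not analysed here. The family was taken up because SP1L5 had one of the lowest values in exudate relative to phloem tissue on these same arrays. The values that separate both sample types are therefore given for its members as a description, with no p-value, and calls among the members are counted but not read as evidence.

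SPR1, also known as SKU6, is the founding member of a plant-specific family whose proteins bind cortical microtubules, the arrays under the plasma membrane that guide cellulose deposition and the direction of cell expansion. Loss of SPR1 in Arabidopsis makes cell files and organs twist in a right-handed helix, and the SPIRAL1-like genes act redundantly with it in elongating cells. SPR1 also interacts with EB1, a protein that tracks the growing ends of microtubules. In the phloem, companion cells and parenchyma keep a nucleus, while mature sieve elements lose theirs and carry the sap.

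The arrays fall into 2 groups of 3. Phloem exudate (n = 3) is the fluid bled from severed sieve tubes into EDTA, a calcium chelator that prevents sealing, and its RNA was amplified by linear amplification in the Affymetrix kit. LMPC phloem (n = 3) is tissue cut out by laser microdissection and pressure catapulting, and its RNA was amplified with the SMART kit after 10 cycles of PCR, so kit and sample type cannot be told apart. All plants grew in 8 h of light at 22 °C and 16 h of darkness at 16 °C until they flowered, and the labels name no genotype, treatment, age or number of pooled plants. Nothing in the labels states that the 3 samples of a group were grown or collected apart. Their spread, on which every p-value here rests, may thus be technical.

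The deposited values are MAS5 signals on a linear scale, 1 per probe set. The 2% trimmed mean of an array lay between 17.4 and 27.3 in exudate and between 22.3 and 28.0 in LMPC phloem, and the 40th percentile of an array between 5.9 and 6.6 in exudate and between 9.05 and 10.6 in LMPC phloem. Marker genes of the labelled tissue were thinly covered. Of 14 companion cell and sieve element genes 4 were measured (SWEET11, CLE41, CLE44 and OPS), with a summed signal of 112.9 to 184.3 in exudate and 212.4 to 446.5 in LMPC phloem. They did not move one way: CLE44 was higher in exudate (difference on log2(signal + 16) of 1.01, limma adjusted p = 0.0325), CLE41 (-2.02, 0.000609) and SWEET11 (-1.17, 0.014) were lower, and OPS was too dim to be tested. SUC2, APL, SEOR1 and the other defining genes of those cells were not analysed here. The summed signal of 3 of 7 nuclear photosynthesis genes was 924.2 to 1805 in exudate and 183.2 to 744.7 in LMPC phloem. The xylem gene GUT2, 1 of 7 listed, had 16.0 to 33.5 in exudate and 64.9 to 80.6 in LMPC phloem, and the guard cell gene FMA, 1 of 4 listed, 0.9 to 11.6 in exudate and 10.8 to 28.9 in LMPC phloem. The ratio of 3' to 5' signal of the control transcripts was 12.5 to 73.4 in exudate and 4.87 to 6.63 in LMPC phloem for actin, and 5.99 to 34.7 in exudate and 36.8 to 48.6 in LMPC phloem for GAPDH. For ubiquitin it was 6.24 to 8.94 in exudate and 8.62 to 10.5 in LMPC phloem. The part of these differences in the values of the SPIRAL1-like genes was not tested, and in bulk RNA fewer cells of a type and less RNA per cell cannot be told apart.

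SP1L5 was a bright transcript of the dissected tissue and lay in the dim to middle range of the sap arrays. Its signals were 11.8, 18.0 and 2.6 on exudate arrays 1 to 3, against 1679, 1540 and 806 on LMPC arrays 1 to 3. The lowest LMPC array was far above the highest exudate array, so the groups did not overlap. The means were 10.8 ± 7.75 in exudate and 1342 ± 469 in LMPC phloem (SD, n = 3 each). On the scale of log2(signal + 16), on which all differences below are exudate minus LMPC phloem, the difference was -5.64 with a standard error of 0.35. Only 6 of the 15356 tested probe sets had a more negative difference, the ranking that had drawn attention to the gene. The pseudocount of 16 sets the size of this difference, because the exudate signals are near or under it: it was -7.06 with a pseudocount of 1 and -4.17 with 64.

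Its place within each array, which multiplying all signals of an array by a factor does not change, showed the same contrast. In LMPC phloem 63, 49 and 90 of 22746 probe sets were brighter than SP1L5 on arrays 1, 2 and 3, which put it at the 99.7th, 99.8th and 99.6th percentile. In exudate it stood at the 58.5th, 69.9th and 26.7th percentile, with 9439, 6842 and 16675 probe sets brighter.

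SPR1 differed least among the tested members and was bright in both kinds of sample. Its signals were 209.1, 282.9 and 565.4 on exudate arrays 1 to 3, against 793.1, 407.3 and 456.3 on LMPC arrays 1 to 3. The ranges overlapped, since exudate array 3 exceeded LMPC arrays 2 and 3. Its means were 352.5 ± 188 in exudate and 552 ± 210 in LMPC phloem (SD, n = 3 each), and its difference was -0.68 with a standard error of 0.37. Its percentile was 97.9, 98.8 and 98.7 on the exudate arrays and 99.2, 98.6 and 99.1 on the LMPC arrays, so the sap samples gave a strong signal for the founding member of the family. Without exudate array 3, the highest of its group, the difference was -1.07. The annotated span of SPR1 overlaps a noncoding gene and, at one end, AT2G03690, whose own probe set had signals of 58.2, 23.4 and 45.5 in exudate and 45.8, 94.4 and 73.1 in LMPC phloem.

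SP1L3 was measured well above background in both sample types and was lower in exudate. It gave 89.8, 59.6 and 187.5 on exudate arrays 1 to 3, against 289.5, 252.3 and 218.2 on LMPC arrays 1 to 3. Every exudate array was below every LMPC array, although exudate array 3 came within a short distance of LMPC array 3. The means were 112.3 ± 66.9 in exudate and 253.3 ± 35.7 in LMPC phloem (SD, n = 3 each), with a difference of -1.19 and a standard error of 0.36. The percentiles were 94.8, 92.5 and 95.8 in exudate and 97.8, 97.7 and 98.0 in LMPC phloem. Its spread was wider in the sap, with a coefficient of variation of 59.5% in exudate and 14.1% in LMPC phloem.

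SP1L2 had a moderate signal in the tissue and lay among the dimmest probe sets in the sap. Its signals were 1.4, 2.0 and 1.4 on exudate arrays 1 to 3, against 41.4, 37.7 and 54.3 on LMPC arrays 1 to 3. The groups were wide apart. The difference was -1.77 with a standard error of 0.30, and with a pseudocount of 1 it was -4.12, since the scale of log2(signal + 16) compresses values this low. SP1L2 lay between the 18.4th and the 22.7th percentile in exudate and at the 80.0th, 79.0th and 89.5th percentile in LMPC phloem. It passed the filter on dim probe sets, which asked for 3 or more arrays with a signal over the 40th percentile of the array, only through its LMPC arrays, and a gene that passes in this way has to differ between the groups. Its annotated span overlaps by a few bases, at one end, the neighbouring kinase gene SIK1, which was not analysed here.

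SP1L4 stayed in the dim part of every array and was not tested. It gave 1.2, 0.9 and 0.8 on exudate arrays 1 to 3, against 2.6, 11.4 and 8.58 on LMPC arrays 1 to 3. It exceeded the 40th percentile on LMPC array 2 and on no other array. Its difference of -0.45 on log2(signal + 16) rests on values that are all under the pseudocount, and no statement about its presence in either sample type can be drawn from it.

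**Figure D1:**
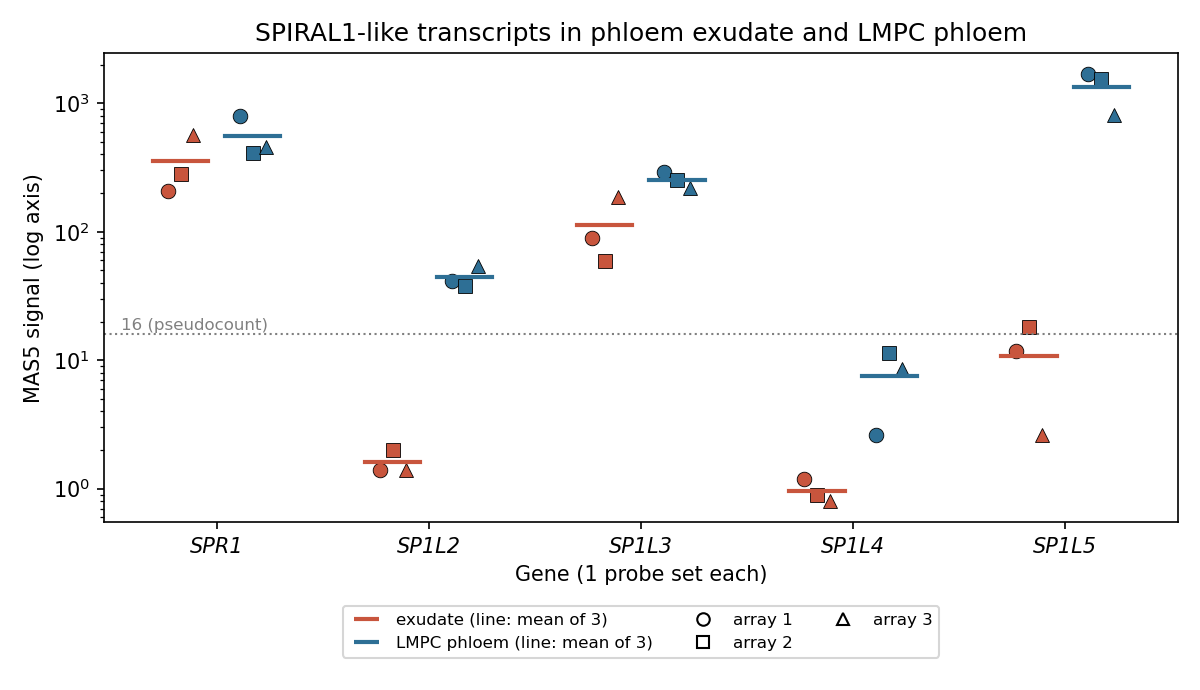
MAS5 signal (log axis) of the 5 measured SPIRAL1-like genes on each array, exudate left of LMPC phloem, with marker shapes for arrays 1, 2 and 3, a line at each group's mean and a dotted line at the pseudocount of 16. SP1L5 lies at 2.6 to 18.0 in exudate and at 806 to 1679 in LMPC phloem, whereas the ranges of SPR1 overlap.

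**Figure D2:**
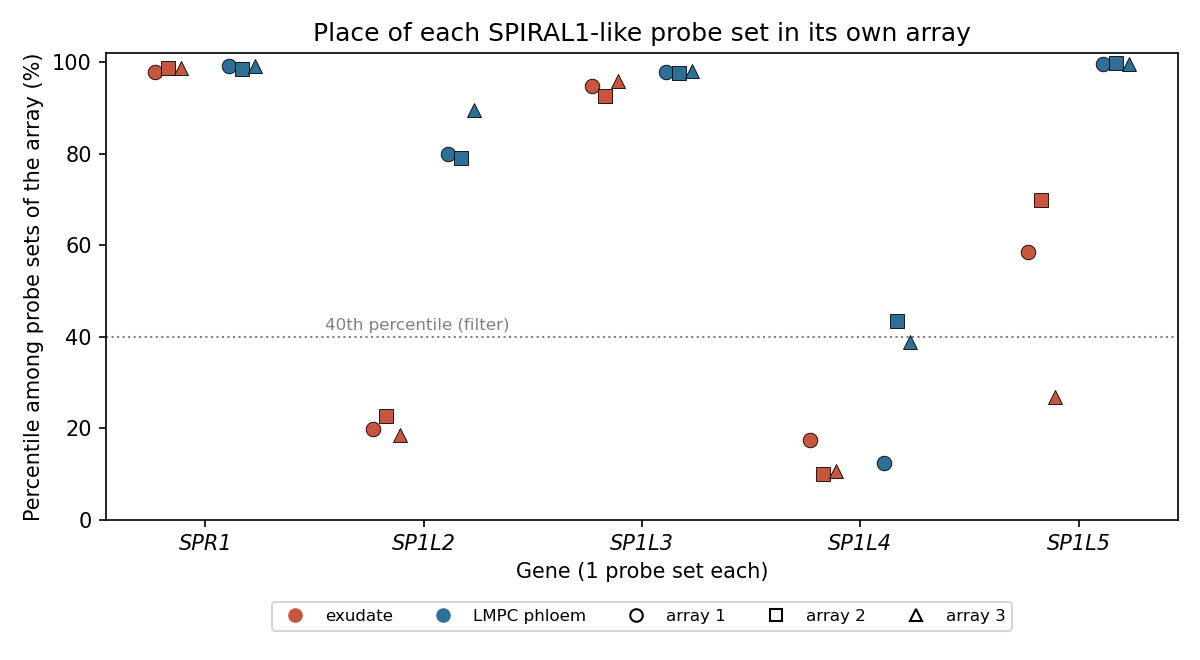
Percentile of each gene's probe set among the 22746 probe sets of the same array, exudate left of LMPC phloem, with marker shapes for arrays 1, 2 and 3. SPR1 and SP1L3 stay at percentile 92.5 or above on all 6 arrays, SP1L2 and SP1L5 are higher on every LMPC array than on any exudate array, and SP1L4 is at or under the 43.4th percentile throughout.

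Set side by side, the 4 tested members had differences of -5.64 (SP1L5), -1.77 (SP1L2), -1.19 (SP1L3) and -0.68 (SPR1), with a median of -1.48, against a median of -0.32 over the 8638 tested genes. By limma's fit across all probe sets, 3 of the 4 passed an adjusted p under 0.05, all lower in exudate, and SPR1 did not. With 1 array left out the count was 2 to 4: SP1L3 was not called without exudate array 1 (-1.11) or 2 (-0.87) or without LMPC array 1 (-1.09) or 2 (-1.19), and SPR1 was called without exudate array 3. In all, SP1L3 lost its call under 8 of 16 alternatives. Of the 8638 genes, 23.7% were called, 17.5% as lower and 6.21% as higher in exudate. Of the 4 tested members, 3 had all exudate arrays below all LMPC arrays, which held for 29.6% of the tested genes. The arrays of SP1L4, which was not tested, were ordered in the same way at signals under the pseudocount. By percentile they were not: SP1L4 stood at 12.4 on LMPC array 1 and at 17.4 on exudate array 1. Nothing is read from these counts, as the family was chosen from this contrast.

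The 5 measured genes did not vary alike within a group. In exudate, SPR1 and SP1L3 were highest on array 3, at 0.78 and 0.79 above their group means on the log2 scale, while SP1L5 was lowest there, at -0.48. In LMPC phloem, SPR1, SP1L3 and SP1L5 were highest on array 1, at 0.57, 0.19 and 0.39 above their group means, and SP1L2 was highest on array 3, at 0.23. Exudate array 3 also had the highest trimmed mean of its group (27.3, against 17.4 to 18.3 on the other exudate arrays), and LMPC array 1 that of its own group (28.0, against 22.3 to 25.9 on the other LMPC arrays). Divided by the trimmed mean of its array, SPR1 was 11.4, 16.2 and 20.7 in exudate and 28.3, 15.7 and 20.4 in LMPC phloem, and SP1L3 was 4.92, 3.42 and 6.87 in exudate and 10.3, 9.72 and 9.78 in LMPC phloem. The overlap of SPR1 and the separation of SP1L3 therefore held after this scaling too.

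Since no common scaling of the arrays showed in the values, each difference was also set against the median of all tested probe sets, which was -0.27 as deposited, -0.04 after quantile normalization, 0.00 after median centring and 0.41 when arrays were scaled to the hybridization spike-ins. Relative to that median, SP1L5 stood at -5.37 as deposited and at -5.02 after spike-in scaling, and SP1L2 at -1.50 as deposited and at -1.64. SP1L3 stood at -0.92 as deposited and at -0.39 after spike-in scaling, and its difference before subtracting the median was 0.02. SPR1 stood at -0.41 as deposited and turned to 0.20 after spike-in scaling, where its difference was 0.61. The large differences of SP1L5 and SP1L2 thus kept their sign under all 6 scalings, whereas those of SPR1 and SP1L3 changed sign under the spike-in scaling. The calls over all 15356 tested probe sets moved with most scalings as well. Of these calls, 33.8% were higher in exudate as deposited and 36.7% after centring on reference genes. The share was 51.1% after quantile normalization, 57.2% after median centring, 47.8% after scaling to the trimmed mean and 88.4% after spike-in scaling.

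**Figure D3:**
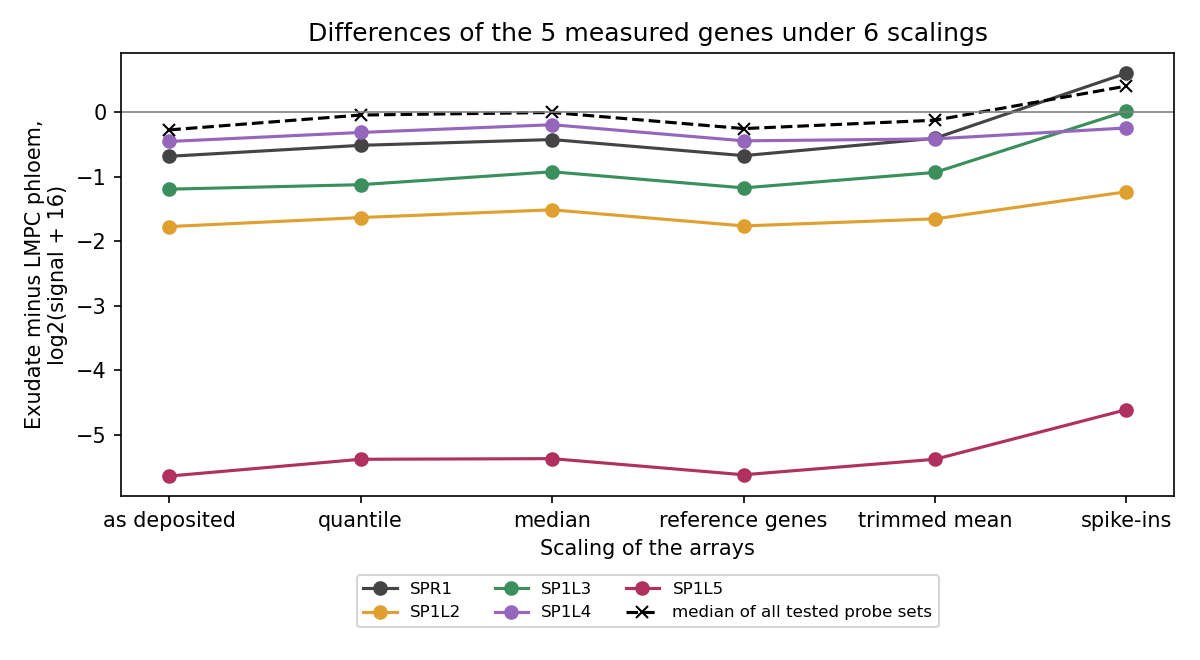
Difference, exudate minus LMPC phloem on log2(signal + 16), of the 5 measured genes (lines join 1 gene) and the median of all tested probe sets (crosses), under 6 scalings of the arrays. SP1L5 lies between -5.64 and -4.61 under all 6, and SPR1 and SP1L3 reach 0.61 and 0.02 under spike-in scaling.

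The measured members also have short gene spans, of 1128 to 1519 bases with introns included (1519 for SP1L2, 1282 for SP1L3, 1269 for SPR1, 1158 for SP1L5 and 1128 for SP1L4). Across all tested nuclear genes, whose median was -0.31, spans from 1000 to just under 2000 bases had a median difference of -0.38 (2814 genes, with quartiles of -0.80 and 0.11). Shorter genes stood at -0.52 (827 genes), genes from 2000 to just under 4000 bases at -0.23 (3879 genes) and longer ones at -0.33 (1030 genes). In the class of the members 21.1% of the genes were called lower in exudate, against 29.5% of the shorter genes, 12.4% in the class that starts at 2000 bases and 14.0% of the longest. The part of gene span in the differences of the members was not tested.

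Other parts of the microtubule system were followed to see how they stood in the same samples, through 82 genes in 5 lists, of which 19 had a probe set of their own and 17 were tested. Limma called 4 of the 17 higher and 1 lower in exudate, against 6.21% and 17.5% of all tested genes, and the median difference was -0.36, against -0.32 for all of them. At an unadjusted p under 0.05 the counts were 5 higher and 2 lower. Among the genes called higher, TON1B and AT2G35880 passed the filter on dim probe sets only through their exudate arrays. With no filter, limma called 2 higher and 1 lower, so the count of genes higher in exudate depends on the filter. TON1B kept its call there (limma adjusted p = 0.0107), whereas AT2G35880 (0.0649) and TUB9 (0.0504) lost theirs.

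Tubulins, the building blocks of the microtubule itself, were the best covered list, with 6 of 15 genes tested. Of these, 2 were higher in exudate, 0 lower and 4 not called, with a median difference of 0.64. At an unadjusted p under 0.05 by limma, 3 were higher and 0 lower. TUB5 (AT1G20010), a beta-tubulin, had signals of 53.3, 62.8 and 58.0 in exudate against 14.4, 3.17 and 15.2 in LMPC phloem. All exudate arrays lay above all LMPC arrays, and the difference was 1.49 ± 0.31 (SE, limma adjusted p = 0.00184). TUB9 (AT4G20890), also a beta-tubulin, had 76.9, 55.8 and 100.9 in exudate against 19.5, 45.3 and 25.1 in LMPC phloem, a difference of 1.04 ± 0.33 (SE, limma adjusted p = 0.0257). Here too the groups did not overlap, but the call of TUB9 was lost without exudate array 1 (adjusted p = 0.0761) or 3 (0.082), without LMPC array 1 (0.106) or 3 (0.0771), when the pseudocount was 1 and when no filter was used, whereas that of TUB5 held under all 16 alternatives. The other tested tubulins had differences of 0.76 (TUA1), 0.53 (TUA6), 0.00 (TUB6) and -0.27 (TUB7) and were not called.

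Among 5 tested genes of nucleation and severing, 1 was higher in exudate and 0 were lower. At an unadjusted p under 0.05 by limma, 1 was higher and 1 lower. The median difference of the list was -0.48, and 4 of the 5 differences were negative. AT5G08390 (-0.70), AT5G23430 (-0.56), AT5G17410 (-0.48) and AT1G11160 (-0.46) were not called. TON1B (AT3G55005), which encodes a TONNEAU1 protein needed to organise cortical arrays and the preprophase band, had 25.8, 44.8 and 34.1 in exudate against 4.92, 2.67 and 7.75 in LMPC phloem. The difference was 1.26 ± 0.31 (SE, limma adjusted p = 0.00559), with no overlap between groups, and the call held under all 16 alternatives. TON1B passed the filter on dim probe sets only through its exudate arrays, so its place relative to the 40th percentile had to differ between the groups. Its signal did not have to, as that percentile was 5.9 to 6.6 on exudate arrays and 9.05 to 10.6 on LMPC arrays. The filter still favours genes that are high in exudate, so the missing overlap and the calls made with the filter are taken as no separate support. With no filter the limma adjusted p of TON1B was 0.0107. The LMPC signals of TON1B and of TUB5 lay under the pseudocount, which therefore sets the size of their differences. With a pseudocount of 1 the difference was 2.61 for TON1B (limma adjusted p = 0.011) and 2.54 for TUB5 (0.0204).

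Of 4 tested microtubule-associated protein genes, 1 was lower and 1 higher in exudate. WDL3 (AT3G23090), a gene of the WAVE-DAMPENED2-like microtubule-binding proteins, had 1.1, 8.2 and 6.1 in exudate against 45.6, 22.5 and 32.7 in LMPC phloem. All exudate arrays were below all LMPC arrays, with a difference of -1.22 ± 0.32 (SE, limma adjusted p = 0.00827). The call of WDL3 was lost without exudate array 1 (-1.07, adjusted p = 0.0511) and after spike-in scaling (-0.58, 0.241). AT2G35880, which has no symbol in the RefSeq table, had 29.7, 23.9 and 142.1 in exudate against 6.88, 4.55 and 1.76 in LMPC phloem, a difference of 1.70 ± 0.42 (SE, limma adjusted p = 0.00571). Exudate array 3 set much of its size: without it the difference was 1.07 (limma adjusted p = 0.0257). Neither a pseudocount of 64 nor the fit with no filter kept the call (limma adjusted p = 0.0965 and 0.0649). AT2G35880 also passed the filter on dim probe sets only through its exudate arrays, so its groups had to differ. MAP65-6 (-0.53), a gene of the MAP65 microtubule bundling proteins, and AT4G32330 (-0.36) were not called.

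The 1 tested folding cofactor, TFCC (also known as PORCINO, -0.52), and the 1 tested kinesin, KIN13A (-0.59), were not called, nor was ACT11 (0.32), the 1 tested gene of 19 in a list of actin, profilin and actin-depolymerising factor genes. Limma at an unadjusted p under 0.05 also gave 0 for each of these 3 lists. EB1, whose protein partners SPR1, was not analysed here, nor were most entries of the lists, so the lists do not stand for the microtubule system as a whole.

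**Figure D4:**
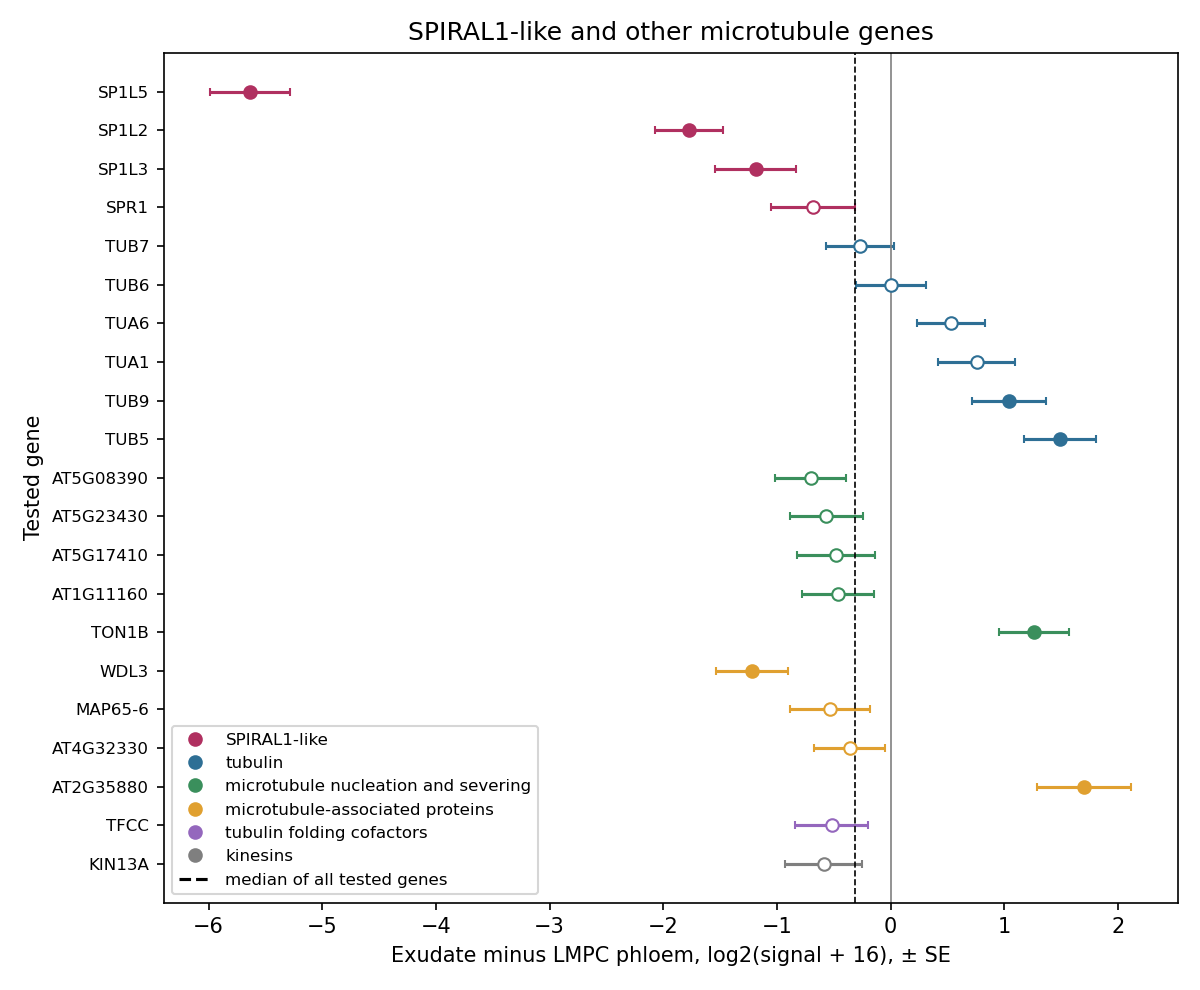
Difference, exudate minus LMPC phloem on log2(signal + 16), with its standard error, for the 4 tested SPIRAL1-like genes and the 17 tested genes of 5 microtubule lists (colours). Filled points passed limma's adjusted p under 0.05, the dashed line is the median of all tested genes (-0.32), and SP1L5 at -5.64 lies far left of the others, while TUB5, TUB9, TON1B and AT2G35880 lie right of 0.

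The genes whose pattern over the 6 arrays was most like that of each member were sought among 1134 tested genes with a symbol. The measure was the root mean square difference between both profiles in log2(signal + 16), each centred on its own mean. It is a description in which the difference between sample types weighs most. The pseudocount of 16 compresses low signals in this measure, and no other pseudocount was tried for it. For SP1L5 the nearest were UBC29 at 0.50, MT1C at 0.58, GSTU20 at 0.62, MSRB5 at 0.63 and the chloroplast gene rps4 at 0.82, and the same 5 were nearest after quantile normalization. The other tested SPIRAL1-like genes were farther from it, with 2.0 for SP1L2, 2.34 for SP1L3 and 2.58 for SPR1. UBC29, a ubiquitin-conjugating enzyme gene, had 14.3, 21.8 and 19.6 in exudate against 1380, 978 and 1066 in LMPC phloem, so it shared the low sap values of SP1L5 and not its drop on LMPC array 3.

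SP1L2 had the closest match of any member, on a scale that compresses signals as low as its own in exudate. CLE26 (AT1G69970), which encodes a small signalling peptide of the CLE family, was at 0.06 from it, with 1.6, 1.8 and 1.2 in exudate against 42.0, 32.1 and 52.8 in LMPC phloem. Both genes were in the dim part of every exudate array and highest on LMPC array 3. The next were bZIP43, a transcription factor gene, at 0.15, NTL at 0.16, the expansin gene EXPA4 at 0.17 and SGP1 at 0.20, and 4 of these 5 remained among the nearest after quantile normalization.

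For SP1L3 the nearest were EMB2786 at 0.18 and APG8A, a gene of the ATG8 proteins of autophagy, at 0.19, followed by SPPA (0.23), the chloroplast gene rps15 (0.24) and ATG8F (0.24), a further ATG8 gene. APG8A had 21.6, 25.6 and 69.7 in exudate against 121.7, 99.3 and 87.1 in LMPC phloem, highest on exudate array 3 and on LMPC array 1, as SP1L3 was. After quantile normalization 3 of these 5 remained among the nearest. For SPR1 they were the chloroplast gene ndhK (0.16), ENGase85A (0.17), CSLC5 (0.19), SPK1 (0.20), a gene for an activator of ROP GTPases, and the chloroplast gene ycf3 (0.20). None of the 5 remained after quantile normalization, so which genes were most like SPR1 depended on the scaling of the arrays. SPR1 and SP1L3 were themselves 0.42 apart, the smallest distance between any pair of the tested members.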

How the data were processed

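The authors deposited intensity values, as linear MAS5 signals, per the submitters' processing notes. Not given in the sources used here: the MAS5 version, scaling target and build. Groups came from the sample titles, since the extract protocol of the LMPC samples speaks of exudate. The table held 22810 probe sets, 64 of them controls. The probe table gave 13513 probe sets 1 gene, and 13436 of these matched RefSeq assembly TAIR10.1, which supplied names, gene spans and overlaps between genes only. A gene was measured by its brightest single-gene probe set.

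Probe sets with 3 or more arrays over the 40th percentile of the array were tested with limma 3.58.1 (R 4.3.3) on log2(signal + 16), with Benjamini-Hochberg adjustment over all 15356 and no covariate. The fit was tested on simulated data. Alternatives were the scaling, the pseudocount, the filter, each array left out and a replicate block; scaling to the trimmed mean was chosen after seeing the data. Gene spans replaced the planned protein lengths.

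The members and lists were chosen with earlier results of these data known. All members were named. Called genes of other lists were named where 6 or fewer were called in a list, the 5 genes nearest in pattern for each tested member, and uncalled list genes after their values were seen.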

Additional observations from a re-analysis of the deposited data

How the results depend on the processing

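The number of arrays, 3 per group, limits the precision. SP1L5 and SP1L2 kept their direction under all 16 alternatives, SPR1 and SP1L3 under 15. After scaling to the hybridization spike-ins SP1L3 turned to 0.02 and SPR1 to 0.61, SP1L2 was at -1.23, SP1L4 at -0.24 and SP1L5 at -4.61, the microtubule lists gave 7 higher and 0 lower, and all probe sets 4036 higher and 532 lower, with a geometric mean spike-in signal of 282.7 to 612.7 on exudate arrays and 894.4 to 1326.3 on LMPC arrays. Median centring gave -1.51 for SP1L2 and -0.19 for SP1L4, with 1961 probe sets higher and 1465 lower, and quantile normalization gave 1982 higher. A pseudocount of 1 gave -4.12 for SP1L2, -1.94 for SP1L4 and -7.06 for SP1L5, and one of 64 gave -0.72, -0.14 and -4.17. Without the filter the microtubule lists had 2 higher. Leaving out 1 array at a time gave 905 to 1214 probe sets higher and 1521 to 2469 lower (1521 without exudate array 1, 1671 without LMPC array 1), and 3 to 4 microtubule genes higher and 0 to 1 lower, with WDL3 lost without exudate array 1. It gave -1.07 to -0.39 for SPR1 (-0.39 without exudate array 1, -0.40 without LMPC array 1), -1.85 to -1.66 for SP1L2, -1.58 to -0.87 for SP1L3, -0.61 to -0.33 for SP1L4 and -5.96 to -5.40 for SP1L5. Besides the arrays named in the report, SP1L3 lost its call after median centring, after spike-in scaling, when no filter was used and when the pseudocount was 1. Since the family was chosen from this contrast, directions and calls of members that held are no sign of stability. Where no cause is named, the cause was not tested.

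The replicate numbers are shared between the groups but nothing says that they pair samples, and deviations of same-numbered arrays correlated at -0.004, -0.016 and -0.074. With the replicate number as a block, 1213 probe sets were higher and 2205 lower, and the calls of the members and of the microtubule genes did not change.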
